A study of Mus musculus with 4 samples.

Results

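The genes described here are 36 enzymes of phospholipid synthesis and remodelling, chosen by name from 21887 protein-coding mouse genes. For each gene, accessible regions were taken within 1 kb of either gene end and, separately, within the gene body extended by 10 kb. The regions came from ATAC-seq, in which the transposase Tn5 cuts and tags open chromatin, in 2 libraries from wild-type (WT) mice and 2 from mice without Sphk2 (Sphk2 KO), the gene for sphingosine kinase 2. All mice had received EL4 cells, which are T lymphoma cells of mouse origin, and the cells profiled were Gr1+CD11b+ myeloid-derived suppressor cells (MDSCs) sorted from ascitic fluid after 14 days. The labels name no strain, age or Sphk2 allele, do not say whether animals were pooled, and call the libraries biological replicates without tying them to animals. Differences therefore measure the spread between libraries. A region's score below is the −log10 of the q-value that the authors' peak caller gave its best peak in a library. Scores and their ranks describe a peak within its own list, since depth differed. Where 4 values follow each other, they are in the order WT 1, WT 2, KO 1, KO 2.

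Phosphatidylcholine, the main membrane phospholipid of mammalian cells, is made mostly by the CDP-choline (Kennedy) pathway, in which choline is phosphorylated, activated with CTP and joined to diacylglycerol. A parallel branch makes phosphatidylethanolamine, which can also arise from phosphatidylserine in mitochondria. Phosphatidic acid, made by stepwise acylation of glycerol 3-phosphate, is dephosphorylated to diacylglycerol or activated to CDP-diacylglycerol for the anionic phospholipids. In the Lands cycle, acyltransferases return fatty acids to lysophospholipids, which sets the acyl chains of the membrane, including the arachidonate from which myeloid cells make eicosanoids.

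Fragments kept for peak calling numbered 33859480, 34443062, 25877428 and 27686223, and peaks 31507, 31843, 20759 and 27446. Sphk2 KO replicate 1 was thus the shallowest library and had the shortest list. At Sphk2 (chromosome 7, 45709463 to 45718002), the region at the start had a peak in every library, and a region inside the gene (45715043 to 45716683) had one in both Sphk2 KO libraries only, with scores of 26.4 and 42.2. A peak at the start does not test a deletion elsewhere in the gene. Of 11 granulocytic marker genes, 9, 8, 7 and 8 had a gene-end peak, with Itgam, which encodes CD11b, in all 4 and Ly6g, a Gr1 antigen gene, in none. The 8 monocytic marker genes had 6, 7, 3 and 4, with Irf8 and Fn1 in WT only and Ccr2 in no library. The 11 T cell genes, which EL4 cells may also use, had 2, 7, 2 and 1. Cd3d had a gene-end peak in every library and Lat in all but Sphk2 KO replicate 2. Zap70, Thy1, Bcl11b, Themis and Cd28 had one in WT replicate 2 alone, and Cd3e, Cd3g, Lck and Tcf7 had none. No B cell gene of 6 had one. Dendritic genes had 3, 3, 2 and 3 of 5. Xcr1 and Clec9a had a gene-end peak in every library, Flt3 in all but Sphk2 KO replicate 1, and Zbtb46 and Siglech in none. Of 5 erythroid genes, Klf1 alone had one, in each library. In bulk lists, fewer cells of a type and weaker accessibility per cell cannot be told apart.

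Most of the phospholipid genes were open at a gene end. A gene-end peak was present at 30, 32, 25 and 30 of the 36 genes, or 83.3%, 88.9%, 69.4% and 83.3%. The shares over all genes were 47.9%, 48.8%, 42.6% and 47.3%. All 4 libraries had a gene-end peak at 24 of the 36 (66.7%), against 41.6% of all genes. The mean was 31.0 ± 1.41 (SD, n = 2) in WT and 27.5 ± 3.54 (SD, n = 2) in Sphk2 KO. The difference of group means was 3.5 genes. The SD given with this and later differences is that of a difference between 1 WT and 1 Sphk2 KO library, here 3.81. The difference of 3.5 fell to 1.00 without Sphk2 KO replicate 1 and was 6.0 without Sphk2 KO replicate 2. Every list was also reduced to its best 20759 peaks, the length of the shortest. The counts were then 28, 28, 25 and 27, a difference of 2.0 with an SD of 1.41. Within the body extended by 10 kb, 34, 35, 28 and 34 genes had a peak, a difference of 3.5 (SD 4.30) that was 0.50 without Sphk2 KO replicate 1 and 6.50 without Sphk2 KO replicate 2. As shares these were 94.4%, 97.2%, 77.8% and 94.4%, against 64.5%, 65.1%, 56.5% and 62.4% of all genes. By lists of the same length the counts were 33, 32, 28 and 30, a difference of 3.5 with an SD of 1.58. The shares over all genes were then 58.4%, 58.4%, 56.5% and 57.6%.

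**Figure D1:**
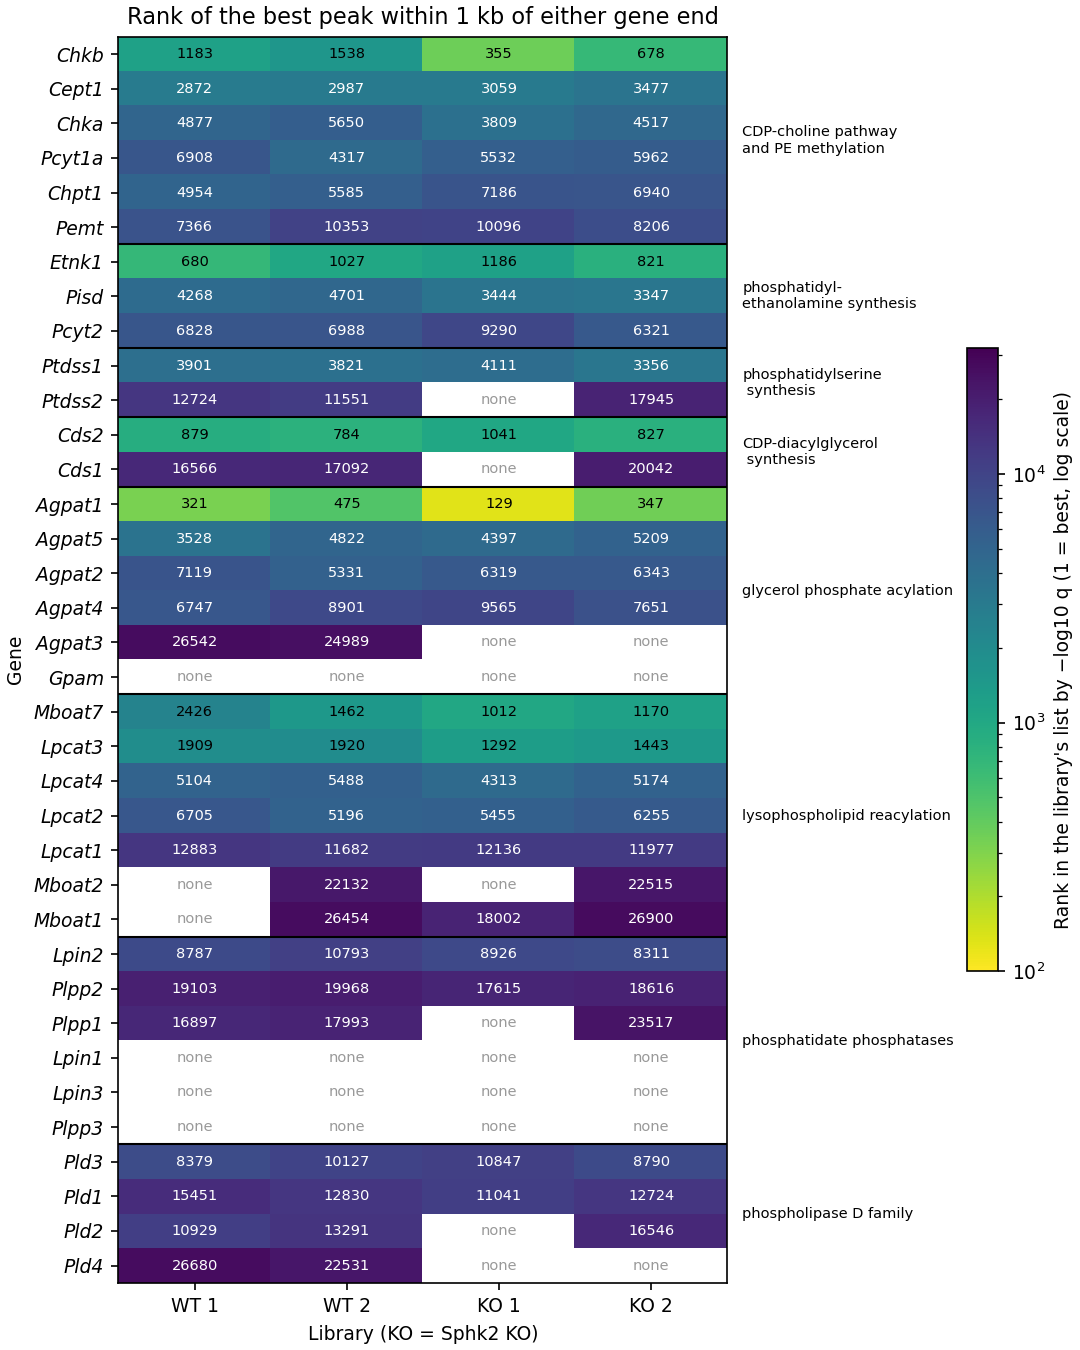
Rank of the best peak within 1 kb of either gene end for the phospholipid genes, by role (rows) and library (columns). Colour and number give the rank in that library's whole list by −log10 q, 1 being best, and white cells marked none have no peak. Agpat1, Cds2 and Etnk1 rank high in each library, while Gpam, Lpin1, Lpin3 and Plpp3 have no gene-end peak.

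Counts by branch rest on 2 to 7 genes each. For comparison, the shares over all genes were 47.9%, 48.8%, 42.6% and 47.3%. All 6 genes of the CDP-choline and methylation branch and all 3 of phosphatidylethanolamine synthesis had a gene-end peak in every library. Of the 6 glycerol phosphate acylation genes, 5, 5, 4 and 4 had one. Of the 7 reacylation genes, 5, 7, 6 and 7 had one. The 6 phosphatidate phosphatase genes had the smallest share of these branches, at 3, 3, 2 and 3, which is near the shares over all genes. The 4 phospholipase D family genes had 4, 4, 2 and 3. Whether the branches differ was not tested.

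**Figure D2:**
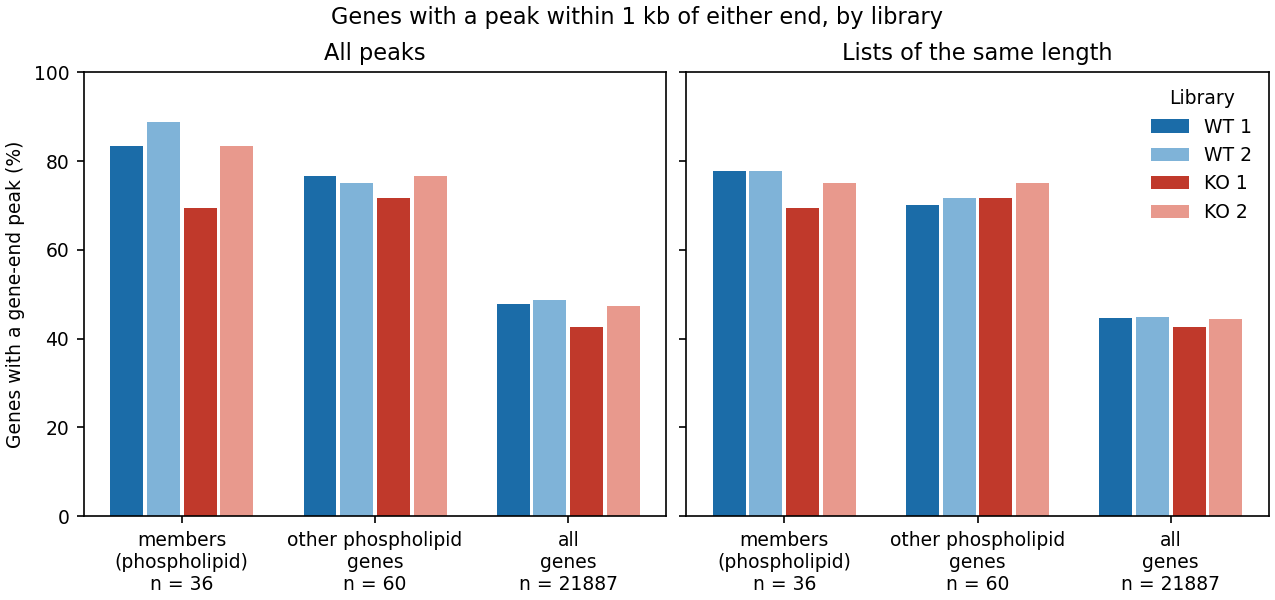
Share of genes that had a gene-end peak (vertical axis, percent) in each library, for the 36 phospholipid genes, 60 other phospholipid genes and all protein-coding genes, from all peaks and from lists of the same length. The phospholipid genes lie above all genes in every library, and Sphk2 KO replicate 1 is lowest at 69.4%.

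The sequences before the starts of a few genes show the range among these promoters. RefSeq (GRCm38.p6, the mm10 assembly) gave 46 annotated starts for 32 of the 36 genes. Each window of 300 bp ran from 250 bases before to 50 after the start, and only the 250 bases before it are printed, 5′ to 3′ on the gene's strand, with every CpG in capitals. Etnk1, ethanolamine kinase, is shown as a CpG-rich start open in all libraries (chr6:143166980-143167229, plus strand). Pisd, the mitochondrial phosphatidylserine decarboxylase, is shown for 2 starts that were both open but differ in CpG content, start 1 (chr5:32785627-32785876, minus strand) and start 2 (chr5:32746343-32746592, minus strand). Gpam, mitochondrial glycerol-3-phosphate acyltransferase, is shown for the opposite case, with no peak at start 1 (chr19:55127239-55127488, minus strand) and a peak in 3 libraries at start 2 (chr19:55099478-55099727, minus strand). Pld4 (chr12:112760405-112760654, plus strand) is the start called in WT alone. Lpin1 (chr12:16610967-16611216, minus strand) and Plpp3 (chr4:105157097-105157346, plus strand) are starts without a peak, the first with a low ratio of observed to expected CpG and the second with few CpGs but a ratio near that of open starts. The Lpin1 start is the only one annotated for it and lies inside the gene, away from the gene's 5′ end.
Etnk1 start 1: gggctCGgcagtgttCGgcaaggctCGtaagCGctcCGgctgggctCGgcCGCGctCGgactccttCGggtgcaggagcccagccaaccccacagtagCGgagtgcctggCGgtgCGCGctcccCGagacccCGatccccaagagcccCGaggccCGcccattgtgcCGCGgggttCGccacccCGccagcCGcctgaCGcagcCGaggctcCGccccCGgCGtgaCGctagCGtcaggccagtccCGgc
Pisd start 1: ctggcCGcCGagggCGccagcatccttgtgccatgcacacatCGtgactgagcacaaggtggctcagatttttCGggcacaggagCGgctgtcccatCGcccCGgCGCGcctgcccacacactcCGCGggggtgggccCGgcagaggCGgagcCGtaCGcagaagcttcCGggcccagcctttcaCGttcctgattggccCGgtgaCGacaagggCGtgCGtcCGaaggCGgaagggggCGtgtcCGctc
Pisd start 2: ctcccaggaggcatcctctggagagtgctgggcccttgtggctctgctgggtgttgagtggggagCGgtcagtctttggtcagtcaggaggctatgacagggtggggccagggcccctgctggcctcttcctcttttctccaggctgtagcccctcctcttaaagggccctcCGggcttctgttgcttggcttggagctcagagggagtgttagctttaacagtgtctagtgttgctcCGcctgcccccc
Gpam start 1: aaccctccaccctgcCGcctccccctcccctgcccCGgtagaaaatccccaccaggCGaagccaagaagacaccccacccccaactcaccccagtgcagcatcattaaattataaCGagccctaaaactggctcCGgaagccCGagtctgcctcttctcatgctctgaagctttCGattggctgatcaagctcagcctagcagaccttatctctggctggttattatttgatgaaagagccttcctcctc
Gpam start 2: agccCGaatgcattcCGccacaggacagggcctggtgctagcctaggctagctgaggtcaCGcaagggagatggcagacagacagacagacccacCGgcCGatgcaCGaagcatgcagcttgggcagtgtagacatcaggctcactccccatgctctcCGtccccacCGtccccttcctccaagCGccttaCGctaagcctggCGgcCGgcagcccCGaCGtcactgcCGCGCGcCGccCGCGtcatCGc
Pld4 start 1: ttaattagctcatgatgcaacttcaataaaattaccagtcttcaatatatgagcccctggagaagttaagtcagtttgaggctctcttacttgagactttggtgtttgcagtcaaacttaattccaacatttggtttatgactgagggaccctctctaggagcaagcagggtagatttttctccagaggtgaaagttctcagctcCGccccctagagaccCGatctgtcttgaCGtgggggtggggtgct
Lpin1 start 1: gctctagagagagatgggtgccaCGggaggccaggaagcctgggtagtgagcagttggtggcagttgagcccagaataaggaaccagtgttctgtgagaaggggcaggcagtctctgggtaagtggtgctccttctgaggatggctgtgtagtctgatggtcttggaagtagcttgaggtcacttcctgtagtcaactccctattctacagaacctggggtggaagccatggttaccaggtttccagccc
Plpp3 start 1: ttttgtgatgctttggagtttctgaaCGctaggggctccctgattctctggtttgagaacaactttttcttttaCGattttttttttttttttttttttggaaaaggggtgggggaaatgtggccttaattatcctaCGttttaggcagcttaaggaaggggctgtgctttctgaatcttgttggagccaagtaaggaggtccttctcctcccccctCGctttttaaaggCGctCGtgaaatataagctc

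In the 250 bases printed, Etnk1 has 31 CpGs, Pisd start 1 has 26 and Pisd start 2 has 3. Gpam start 1 has 7 and Gpam start 2 has 21, while Pld4 has 3, Lpin1 has 1 and Plpp3 has 6. Over the windows of 300 bp, the 22 starts of phospholipid genes with a peak in all 4 libraries had a median observed over expected CpG of 0.840. The 12 starts with a peak in 1 to 3 libraries had 0.696, and the 12 without a peak had 0.295. The medians over all protein-coding starts in the same classes were 0.821, 0.643 and 0.259, so these starts followed the genome-wide pattern. Pisd start 2 was the exception among open starts, at 0.177, and Agpat4 followed at 0.516. Among starts without a peak, Agpat1 start 1 (0.733), Plpp3 (0.705) and Lpin3 start 2 (0.694) had the highest ratios.

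**Figure D3:**
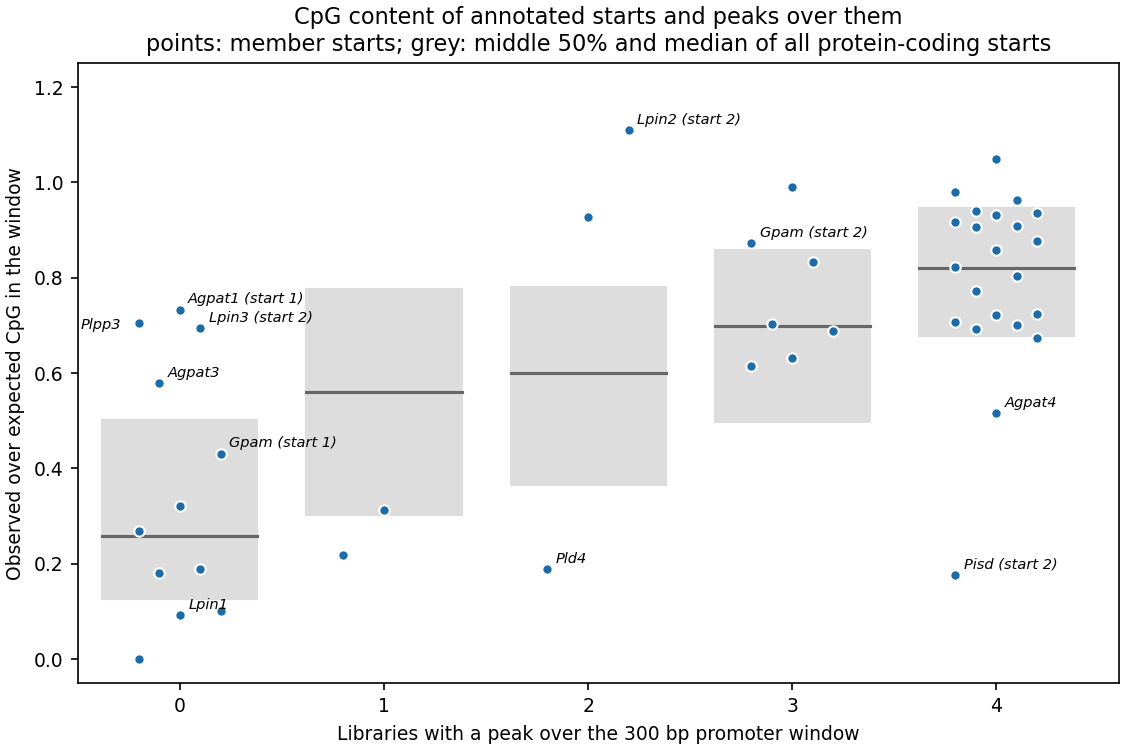
Observed over expected CpG in the 300 bp window around each annotated start (vertical axis) against the number of libraries with a peak over it (horizontal axis). Points are starts of phospholipid genes; grey boxes and lines are the middle 50% and median of all protein-coding starts. Pisd start 2 lies at 0.177 among starts open in all 4 libraries, and Plpp3 at 0.705 among starts with no peak.

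Short motifs were searched on both strands of the same windows, as descriptions of sequence. The GC box GGGCGG occurred in 86.4% of the phospholipid starts open in all libraries, against 70.5% of all such starts, and in 33.3% against 25.9% of starts without a peak. The CCAAT box of NF-Y occurred in 40.9% against 39.7% of the open starts. A sterol element, TCACNCCAC, occurred in 4.35% of the phospholipid starts and 1.19% of all starts, and every match belonged to Pcyt1a. Pcyt1a encodes the enzyme that makes CDP-choline, the rate-limiting step of its pathway. Its match TCACCCCAC lay at -116 to -108 from start 1 and is also in the window of start 2. It is shown in capitals in the 250 bases before start 1 (chr16:32430671-32430920, plus strand), because it was the only sterol element among these genes.
Pcyt1a start 1: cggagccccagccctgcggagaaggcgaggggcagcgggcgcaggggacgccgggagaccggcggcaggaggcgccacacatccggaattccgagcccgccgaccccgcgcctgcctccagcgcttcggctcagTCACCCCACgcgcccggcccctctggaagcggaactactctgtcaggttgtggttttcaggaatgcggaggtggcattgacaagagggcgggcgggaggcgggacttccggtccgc

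The PU.1 sequence GAGGAAGT was present in the Pld4 window alone, at 9 to 16 bases after the start (2.17% of phospholipid starts against 3.13% of all). The E-box CACGTG occurred at Lpin2 start 1 and Lpin3 start 1 (4.35% against 7.84%). TATAAA occurred at Chkb and Lpcat2 (4.35% against 12.6%). TTGCGCAA, a C/EBP sequence, occurred in none of these windows and in 0.221% of all. Motifs were counted separately, overlaps included. These shares rest on 46 windows, some of which overlap.

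In the CDP-choline branch, the 2 choline kinase genes both had a region over the start that ranked higher in Sphk2 KO. Chkb (chromosome 15, 89426349 to 89429927) had scores of 130, 128, 125 and 207. In lists of the same length these were ranks 1183, 1538, 355 and 678, so both Sphk2 KO libraries ranked it above both WT libraries. Chka (chromosome 19, 3851585 to 3894369) had scores of 61.0, 60.1, 48.7 and 85.4 and ranks 4877, 5650, 3809 and 4517, also without overlap. Of all genes compared in this way, 18.1% ranked higher in Sphk2 KO without overlap. Chka had a second region in all libraries, 28444 bp inside the gene, with scores of 12.3, 15.2, 9.97 and 17.3.

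Pcyt1a (chromosome 16, 32430921 to 32475065) had a single region, which covered all 3 of its annotated starts. Its scores were 43.7, 75.1, 35.8 and 66.8 and its ranks 6908, 4317, 5532 and 5962, with overlap between the genotypes. Chpt1, cholinephosphotransferase (chromosome 10, 88469513 to 88503970), went the other way from the kinases. Its scores were 60.2, 60.6, 27.1 and 56.7, and its ranks of 4954 and 5585 in WT stood above 7186 and 6940 in Sphk2 KO. Cept1, which makes both phosphatidylcholine and phosphatidylethanolamine (chromosome 3, 106502260 to 106547802), ranked 2872 and 2987 in WT, against 3059 and 3477 in Sphk2 KO. Its scores were 86.8, 94.5, 56.5 and 104, at a region shared with the end of Dram2.

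Pemt, which methylates phosphatidylethanolamine to phosphatidylcholine (chromosome 11, 59970614 to 60046561), had a gene-end region in all libraries (60045890 to 60046716). This covered its higher coordinate end, which is its 5′ end in the gene table. Its scores were 40.8, 30.3, 16.5 and 46.0 and its ranks 7366, 10353, 10096 and 8206, which overlapped. This region lay 5702 bp from the nearest of the 2 starts in the promoter table, and neither of those had a peak in any library. Their CpG ratios were 0.189 and 0.10, in the range of starts without a peak.

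Of the phosphatidylethanolamine genes, Etnk1 (chromosome 6, 143166866 to 143208546) ranked among the best of the whole set. Its scores were 154, 147, 90 and 195 and its ranks 680, 1027, 1186 and 821, which overlapped. Pcyt2, which makes CDP-ethanolamine, had 44.2, 49.3, 19 and 63.2 at a region shared with the end of Sirt7. Pisd (chromosome 5, 32736301 to 32785642) had a region at each annotated start in all libraries. Start 1 had scores of 67.7, 70.3, 52.1 and 106, and the CpG-poor start 2, inside the gene, had 99.3, 122, 51.2 and 132. By start 1, Pisd ranked 4268 and 4701 in WT, against 3444 and 3347 in Sphk2 KO. By start 2 it ranked the other way, at 2233 and 1731 in WT against 3537 and 2277 in Sphk2 KO, so its starts gave opposite orders, each without overlap. Pisd also had the only Sphk2 KO-only region of the set, in its flank (32729006 to 32729215), with scores of 2.09 and 5.07. The gene table lists pseudogene copies of Pisd (Pisd-ps1, Pisd-ps2 and Pisd-ps3), so reads may have been split between copies and its values are uncertain.

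The phosphatidylserine synthase Ptdss1 had its region in all libraries, with 72.4, 81.6, 46.1 and 106, at a stretch shared with Mterf3. Ptdss2 had 18.5, 25.3 and 9.67 in the other 3 libraries and no gene-end peak in Sphk2 KO replicate 1. A flank region of Ptdss2 was stronger in every library, with 80.0, 81.8, 47.6 and 76.3. The CDP-diacylglycerol synthases differed more. Cds2 (chromosome 2, 132253338 to 132312050) had 7 regions, 5 of them in all libraries. Its best gene-end region, shared with Pcna, had 143, 159, 94.6 and 194 and ranks of 879, 784, 1041 and 827. The region over its start 1 had 140, 143, 94.1 and 163. Cds1 had 10.7, 11.5 and 6.59 and no gene-end peak in Sphk2 KO replicate 1, at a region shared with Gm42134.

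Among the acylation genes, Agpat1, a lysophosphatidic acid acyltransferase (chromosome 17, 34604195 to 34613449), had the best-ranked region of all 36 genes. Its scores were 182, 179, 149 and 242 and its ranks 321, 475, 129 and 347, which overlapped. This region (34603412 to 34604778) covered the 5′ end of Agpat1 in the gene table, at 34604195. It lay 1083 bp from the nearest Agpat1 start in the promoter table. It was also within 1 kb of the end of Rnf5, so it cannot be assigned to 1 of these genes. Agpat2 and Agpat5 were called in all libraries, with scores of 31.3 to 63.4 and 43.8 to 77.5. Agpat4 (chromosome 17, 12118485 to 12219649) had 7 regions, and 5 of its inside regions were called in all libraries. Its start region had 44.8, 37.3, 18.1 and 50.3. Agpat3 (chromosome 10, 78269174 to 78352497) had a gene-end region in WT only (78352034 to 78352493), 334 bp from its start, with scores of 2.98 and 4.11. Gpam (chromosome 19, 55067635 to 55127319) had no gene-end peak, and its inner start 2 had 11.2, 6.82 and 10.1 with none in Sphk2 KO replicate 1.

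**Figure D4:**
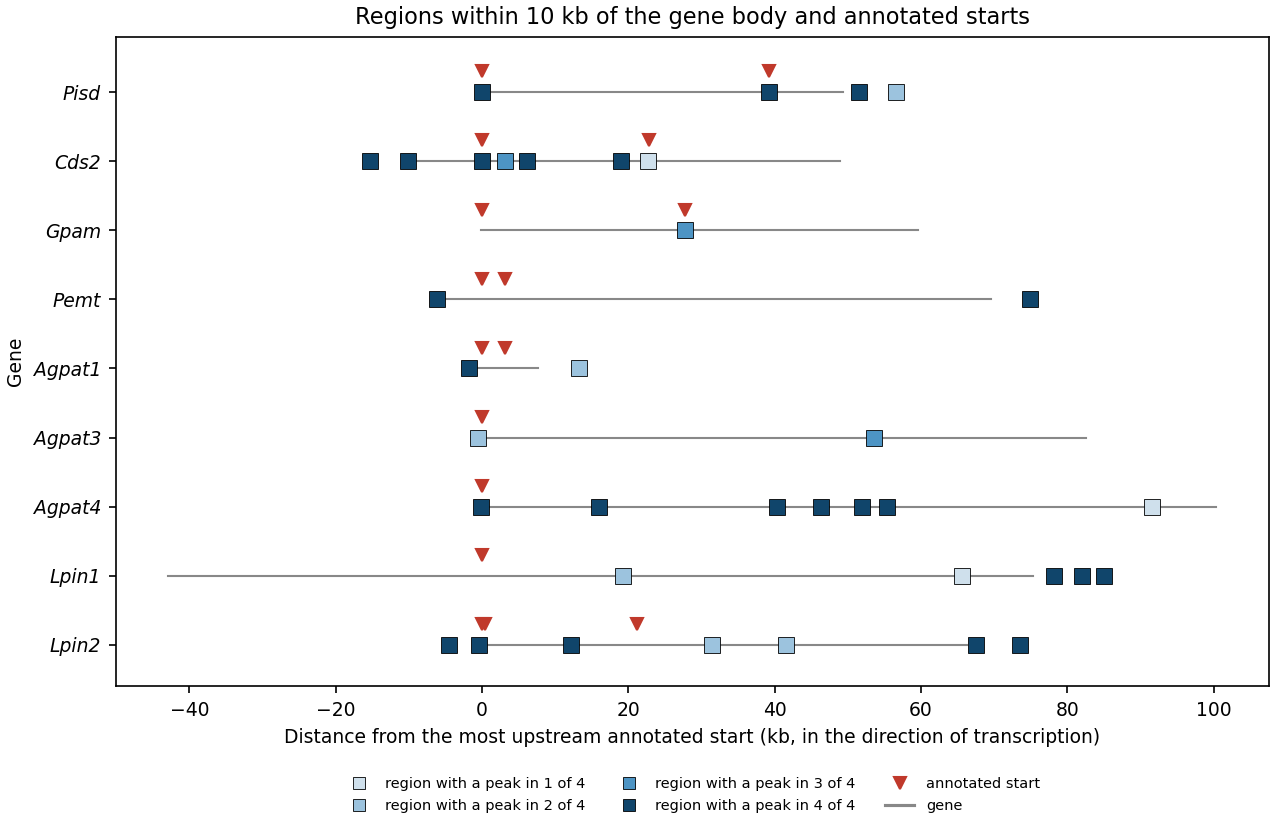
Merged regions (squares) and annotated starts (triangles) of selected genes, with distance from the most upstream annotated start in kb along the direction of transcription. Squares have a fixed size, lie at the midpoints of regions and are darker where more libraries had a peak. Pisd has a region at both starts, Gpam at the inner start only, and the regions of Pemt and Lpin1 lie away from the starts in the promoter table.

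The Lands cycle genes included several of the best-ranked regions. Lpcat3, which puts arachidonate and linoleate into phospholipids, had scores of 107, 117, 86.7 and 162 at its start. Its ranks were 1909 and 1920 in WT, against 1292 and 1443 in Sphk2 KO. Mboat7, a lysophosphatidylinositol acyltransferase for arachidonate, had 95.5, 130, 95.3 and 174 at a region shared with Tsen34. Its ranks were 2426 and 1462 in WT, against 1012 and 1170 in Sphk2 KO. Neither gene had overlapping ranks by score between the genotypes, but both overlapped when ranked by fold enrichment. Of all genes compared by score, 18.1% ranked higher in Sphk2 KO without overlap. Lpcat1, Lpcat2 and Lpcat4 were called in all libraries and their ranks by score overlapped. Mboat1 (chromosome 13, 30136451 to 30246694) had weak gene-end peaks of 3.49, 3.70 and 1.89 and none in WT replicate 1. It also had an inside region in WT only (30154279 to 30154582, 17789 bp from the start) with 13.8 and 14.9, the highest scores of any WT-only region of the set. Mboat2 had gene-end peaks in replicate 2 of each genotype, with 6.11 and 4.38.

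Of the 6 phosphatidate phosphatase genes, 3 had no gene-end peak in any library. Lpin2 (chromosome 17, 71183532 to 71249818) had 7 regions, with 32.9, 28.2, 20.2 and 45.2 over its start 1. A pair of its inside regions was in WT only, 71214706 to 71215177 with 2.98 and 3.49 and 71224655 to 71225424 with 4.26 and 2.90. Lpin1 (chromosome 12, 16535669 to 16653903) had no gene-end peak, but 3 regions just beyond its lower coordinate end were called in all libraries. The strongest of these had 36.2, 33.0, 20.4 and 44.1. An inside region of Lpin1 was in WT only (16591555 to 16591916), with 8.83 and 9.80. It lay 19050 bp from the only Lpin1 start in the promoter table, at 16610966. That start is inside the gene, whose 5′ end in the gene table is at 16653903. Lpin3 had no gene-end peak and 1 flank region, near Zhx3, with 11.2, 14.9, 12.7 and 13.6. Plpp2 had low scores of 7.57, 8.05, 3.88 and 8.80, with ranks of 19103 and 19968 in WT, against 17615 and 18616 in Sphk2 KO. Plpp1 had 10.3, 10.4 and 3.71 and none in Sphk2 KO replicate 1. Plpp3 was the only gene of the 36 with no peak anywhere in its extended body.

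In the phospholipase D family, Pld1, which makes phosphatidic acid from phosphatidylcholine (chromosome 3, 27938459 to 28133362), had 12.4, 20.9, 14.0 and 22.5 at its start. It ranked 15451 and 12830 in WT, against 11041 and 12724 in Sphk2 KO. An inside region of Pld1 was in WT only (28011986 to 28012474), with 8.69 and 12.3. Pld2 had 23.8, 19.6 and 12.2 and none in Sphk2 KO replicate 1, and Pld3 had 35.0, 31.4, 14.5 and 41.9 at a region shared with 2310022A10Rik. Pld4, an endolysosomal nuclease despite its name, was the gene whose every region was in WT only (chromosome 12, 112760446 to 112768986). Its start region (112760282 to 112760909) had 2.98 and 5.58, and the inside region (112761636 to 112762462) had 2.92 and 7.18.

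By genotype, Agpat3 and Pld4 were called at a gene end in each WT library and in no Sphk2 KO library, 2 of 36 genes (5.56%) against 1.27% of all genes, and no phospholipid gene had the reverse pattern, against 0.101%. Among genes called at an end in both WT libraries, the shares were 2 of 30 (6.67%) and 2.74%. Both genes were near the threshold of the lists, and neither was in WT only at a gene end by lists of the same length. There the only such gene was Plpp1 (1 of 36, or 2.78%, against 0.749%), and none was in Sphk2 KO only, against 0.338%. Without Sphk2 KO replicate 2 the count rose from 2 to 6. In the body extended by 10 kb, Pld4 alone was in WT only (2.78% against 2.14%) and none in Sphk2 KO only, against 0.114%. By lists of the same length, Agpat3 and Plpp1 were in WT only there (5.56% against 1.03%) and none in Sphk2 KO only, against 0.251%. A gene-end peak was missing in Sphk2 KO replicate 1 alone at 4 genes, Ptdss2, Cds1, Pld2 and Plpp1 (11.1%, against 3.31% of all genes). These shares also count genes with no gene-end peak in any library, which were 11.1% of the 36 and 48.6% of all genes. The 2 shares are thus not on the same base. As a count, the monocytic markers, at 6, 7, 3 and 4 of 8, moved in the direction of Agpat3 and Pld4. By lists of the same length they had 5, 5, 3 and 4. There 2 of these 8 markers were in WT only and 1 was in Sphk2 KO only, so not every marker moved that way. The T cell markers had 2, 7, 2 and 1 of 11, and by lists of the same length 2, 1, 2 and 1. Their part in the result was not tested.

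Counted as regions, the extended bodies held 98, of which 81, 89, 57 and 77 had a peak. Of 29351 regions near any gene, 21982, 23147, 15973 and 20975 had one. At the phospholipid genes, the difference of 18.0 regions had an SD of 15.2, and it was 8.0 without Sphk2 KO replicate 1 and 28 without Sphk2 KO replicate 2. All 4 libraries shared 54 (55.1%), against 48.9% of all regions near genes. WT-only regions numbered 8 (8.16%, against 5.45%) and Sphk2 KO-only regions 1 (1.02%, against 0.620%). The count of 8 became 17 without WT replicate 1 and 22 without Sphk2 KO replicate 2, and the count of 1 became 2 without WT replicate 2 and 4 without Sphk2 KO replicate 1. By lists of the same length the counts were 5 and 0, and of the 9 regions above only those of Pld1, Lpin1 and Mboat1 remained WT only. A peak missing in Sphk2 KO replicate 1 alone was found at 14 regions (14.3%, against 8.36%). Of the 35 gene-end regions, 12 lay within 1 kb of another gene's end, so these cannot be assigned to 1 gene.

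**Figure D5:**
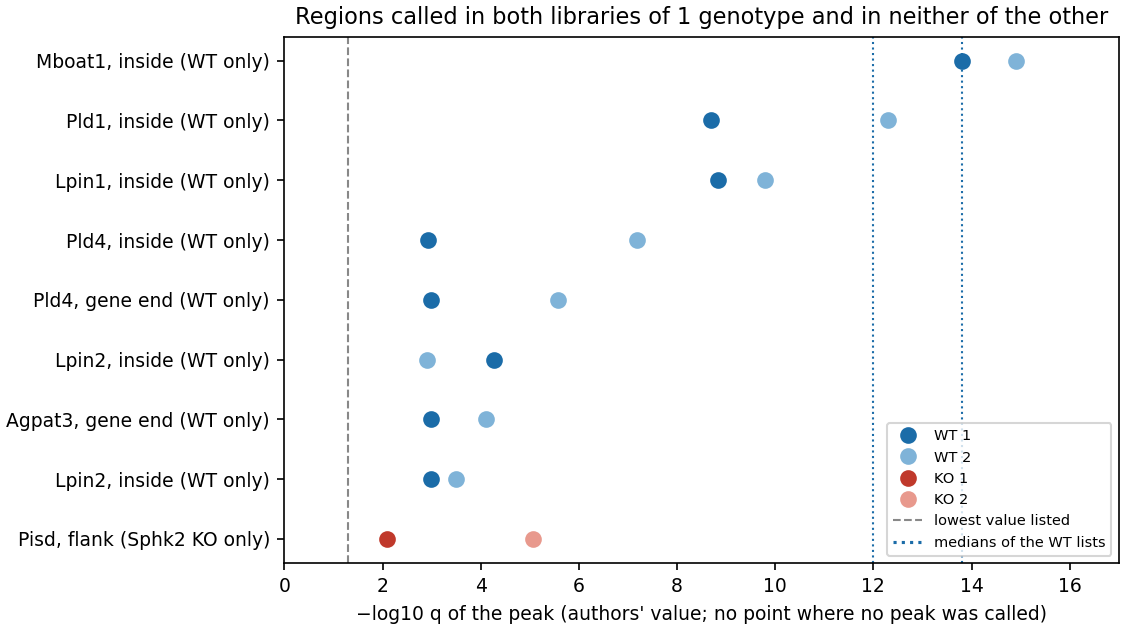
Scores (−log10 q) of the regions called in both libraries of 1 genotype and in neither of the other. Points are libraries, dark and light blue for WT 1 and WT 2 and dark and light red for KO 1 and KO 2. The dashed line is the lowest score listed and the dotted lines are the medians of the WT lists. The inside region of Mboat1 has the highest scores, 13.8 and 14.9, and 7 of the 9 regions have no score above 10.

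Ranks in lists of the same length could be compared for 24 of the genes. Between the genotypes, 7 ranked higher in Sphk2 KO without overlap (29.2%, against 18.1% of all genes) and 2 ranked higher in WT (8.33%, against 22.0%), while 15 overlapped. The 7 were Chkb, Lpcat3, Mboat7, Pisd, Chka, Pld1 and Plpp2, and the 2 were Cept1 and Chpt1. Each has a two-sided exact permutation p of 0.33, the smallest that 2 libraries against 2 can give. When peaks were ranked by fold enrichment, 7 of 23 genes ranked higher in Sphk2 KO (30.4%, against 17.2% of all genes) and 1 in WT (4.35%, against 16.8%). These 7 were mostly other genes, with only Chka, Chkb and Pisd in both sets and Cds2, Ptdss1, Lpcat4 and Lpcat1 new. By fold enrichment Lpcat3, Mboat7, Pld1 and Cept1 overlapped, and Plpp2 was not compared. Re-ranked among regions called in every library, 5 of 24 ranked higher in Sphk2 KO (20.8%, near the 17.1% of all genes) and 2 in WT (8.33%, against 22.8%). Chka, Chkb and Pisd ranked higher in Sphk2 KO, and Chpt1 in WT, by all 3 rankings of their gene-end regions. For Pisd this was start 1 alone, since its start 2 region, inside the gene, ranked higher in WT. The 3 rankings draw on the same peaks, and the share of all genes that kept a direction in all 3 is not given here. Whether these 4 genes exceed that share was not tested. Median fold enrichment over all peaks was 5.19, 5.11, 6.03 and 6.01, and its part in these ranks was not tested.

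Of 60 other phospholipid genes, such as phospholipases, choline transporters and plasmalogen enzymes, 46, 45, 43 and 46 had a gene-end peak, and 43 (71.7%) had one in every library. None was in WT only, against 1.27% of all genes, and none in Sphk2 KO only, against 0.101%. In the body extended by 10 kb, 3 were in WT only (5.0% against 2.14%), and 1 was by lists of the same length.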

How the data were processed

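Per the labels, the 4 libraries came from Gr1+CD11b+ cells, with 20000 cells and 40% of the recommended Tn5 each. The submitters' processing notes name Cutadapt, BWA, MACS2 and mm10. Per the file headers, the authors called peaks per library with MACS 2.1.1.20160309, paired-end, without a control, at q 0.05, and kept 1 fragment per position. The deposited lists give pileup, a coverage signal not scaled to depth, the −log10 of p- and q-values, and fold enrichment, a ratio over local background. A shift of fragment ends for Tn5 is not given in the sources.

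Peaks sharing at least 1 bp were merged across libraries. WT only means a peak in both WT libraries and neither Sphk2 KO library. Ranks compared between genotypes used the best 20759 peaks of each list. The SD of a difference combines the SDs of both groups. It describes a difference between single libraries and is larger than the SD of a difference of group means. Genes, gene ends and promoter sequences came from RefSeq GRCm38.p6, the assembly of mm10. The files hold no read counts, so no model was fitted. A region without a peak may be open below the threshold. Genes named with values were the CDP-choline genes, those with genotype-specific regions or ranks, the 5 best ranked, and the 3 with most regions; others by their role were added after their values were seen. The 36 genes, the lists and the motifs were chosen with earlier results of these data known. The merging and overlap steps were tested on simulated intervals, which held no ranks. Alternatives were other thresholds and windows, lists of the same length, summits, and each library left out. Python 3.11.15 with pandas 2.3.3 was used.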

Additional observations from a re-analysis of the deposited data

How the results depend on the processing

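The direction of the differences in gene-end peaks, extended-body peaks and regions held in the alternatives run. With all peaks, those in gene-end and extended-body peaks were 3.5 (SD 3.81) and 3.5 (SD 4.30). By lists of the same length they were 2.0 (SD 1.41) and 3.5 (SD 1.58). These SDs are for single libraries, so they do not measure the spread of a difference of group means. Leave-one-out ranges were 1.00 to 6.0 genes for gene ends, 0.50 to 6.50 for extended bodies and 8.0 to 28 for regions. They were 2 to 6 for genes in WT only, 0 to 1 for genes in Sphk2 KO only, 8 to 22 for WT-only regions and 1 to 4 for Sphk2 KO-only regions. The number of WT-only genes was 1 at a −log10 q of at least 5, 1 by lists of the same length, and 1 by those lists without Sphk2 KO replicate 1, a setting added after seeing the data. WT-only regions numbered 5 by lists of the same length and 16 with bodies extended by 50 kb. Sphk2 KO-only regions numbered 0 at a −log10 q of at least 5, 0 by lists of the same length, 0 in the body alone and 2 with bodies extended by 50 kb, where the difference in regions was 37.5. By fold enrichment 1 gene ranked higher in WT. The causes were not tested. With the replicate block the differences stayed at 3.5, 3.5 and 18.0, since group means do not change; same-numbered libraries did not deviate together (correlation 0.018 over 16973 regions, described only). Depth and list length differed between the libraries, and their part in the calls was not tested.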

Other observations

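Between 10 and 50 kb from these genes, further regions were called in 1 genotype alone. Extending the bodies from 10 to 50 kb took WT-only regions from 8 to 16 and Sphk2 KO-only regions from 1 to 2. The number of regions in this range is not given, so these have no share. Within 10 kb of any gene, 5.45% of regions were in WT only and 0.620% in Sphk2 KO only. Those named here are examples. A region 25663 bp from Lpcat3 had scores of 12.0 and 9.06 in WT replicates 1 and 2 and no peak in Sphk2 KO. A region 30888 bp from Plpp3, the gene without a peak in its extended body, had 6.38 and 14.9 in WT only. A region 22237 bp from Pemt lay at the end of Med9 and had 7.90 and 14.9 in WT only. A region 16668 bp from Pld4, which was in WT only at its start, had 4.87 and 7.65. The region 31727 bp from Agpat3 went the other way, with 2.39 and 3.18 in Sphk2 KO only. The nearest gene is not known to be the one such a region serves, and this was not tested.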
